A study of Mus musculus with 9 samples.

Results

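The genes described here encode the receptors for the constant part of IgG and their closest partners in the mouse, together with Fcrls. They are Fcgr1, Fcgr3, Fcgr4 and Fcgr2b, the shared signalling chain Fcer1g, the neonatal receptor Fcgrt and the Fc receptor-like gene Fcrls. They were chosen by name, and all 7 had at least 1 probe set annotated to their symbol alone, out of 17097 genes measured in this way. Fcgr1 had 2 such probe sets and Fcgr2b had 4, and for these the brightest on average stood for the gene.

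RNA came from brain tissue around the site of a stereotaxic injection into the striatum of male C57Bl/6J mice aged 10 to 12 weeks, taken from the injected hemisphere after saline perfusion. The 3 groups were LPS 4 d (brains collected 4 d after lipopolysaccharide, a component of the outer membrane of Gram-negative bacteria), LPS 1 d (collected 1 d after the same injection) and PBS (vehicle, collected at 4 d). The labels name no engineered allele. All animals had received an intracerebral injection, and neither uninjected brain nor vehicle-injected tissue at 1 d was analysed here. Each group had 3 arrays, and every array carried equal amounts of RNA from 3 mice, so that the replicate here is the pool and differences between single mice are not seen. The comparisons ask how these genes stood at the resolution time point (4 d) and the induction time point (1 d) against vehicle, and against each other.

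Fc gamma receptors bind the constant region of IgG on immune complexes and opsonised targets. In the mouse, Fcgr1, Fcgr3 and Fcgr4 are activating: they signal through the Fcer1g chain, whose ITAM (a tyrosine motif) is phosphorylated by Src-family kinases and then recruits Syk, leading to phagocytosis, oxidant release and cytokine production. Fcgr2b carries an inhibitory motif (ITIM) and recruits the lipid phosphatase Inpp5d, which opposes that signal. In the brain these receptors are found mainly on microglia and other macrophages. Fcgrt encodes the heavy chain of FcRn, which pairs with beta-2 microglobulin, spares IgG and albumin from lysosomal breakdown and is present in brain endothelium and in myeloid cells. Fcrls resembles the Fc receptors in sequence, is not known as an IgG receptor in the mouse, and is widely used as a signature gene of mouse microglia.

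Values are log2 expression levels per probe set, processed by RMA before deposition. The median level lay between 4.32 and 4.37 on the 9 arrays, and the highest mean among 23 nonspecific control probe sets, 3.49, was taken as the background level. Markers of striatum and neurons were present as the tissue label implies, with all 6 measured above background in every group and summed linear levels of 8928 to 9494 in LPS 4 d, 9506 to 9803 in LPS 1 d and 9622 to 9889 in PBS arrays.

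All 7 genes differed across the 3 groups in the moderated F-test of limma, beside 7.67% of all genes. Here a gene is called when its adjusted p is under 0.05 and its change is at least 1.5-fold. Against PBS, 6 of the 7 were higher at 4 d (every one except Fcgrt), beside 4.21% of all genes called higher and 0.205% called lower. At 1 d, 5 of the 7 were higher (the 4 Fc gamma receptors and Fcer1g), beside 3.86% of all genes called higher and 0.532% lower. Between the LPS groups, Fcgrt and Fcrls were higher at 4 d than at 1 d, beside 1.84% of all genes called higher and 1.37% lower, and the other 5 were not called. In all 7 genes the 3 LPS 4 d arrays lay above the 3 PBS arrays, a pattern seen in 12.0% of all genes. The LPS 1 d arrays lay wholly above PBS in 5 of the 7 (11.5% of all genes), and the LPS 4 d arrays wholly above LPS 1 d in 4 of the 7, Fcgr3, Fcer1g, Fcgrt and Fcrls (11.4% of all genes). The median log2 change of the 7 genes was 2.23 for LPS 4 d against PBS, 1.96 for LPS 1 d against PBS and 0.27 for LPS 4 d against LPS 1 d, where the median over all genes was -0.02, -0.03 and 0.00.

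**Figure D1:**
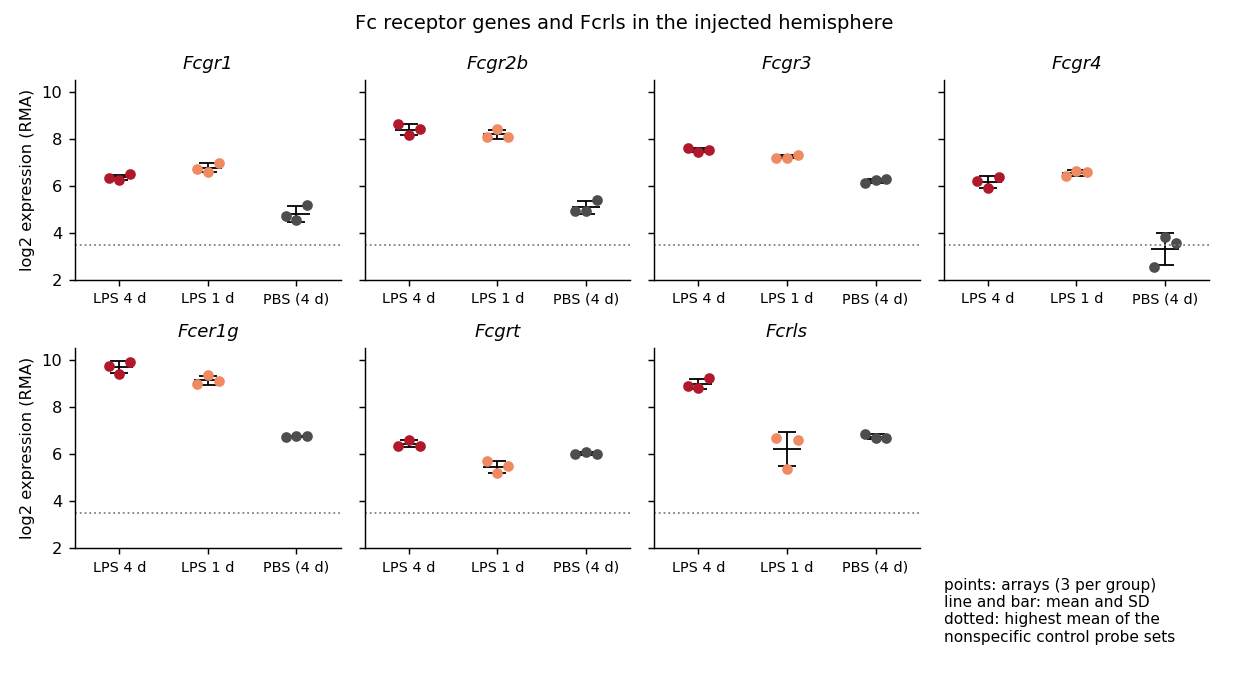
Log2 expression of each gene on each array (vertical axis) in the LPS 4 d, LPS 1 d and PBS groups. Points are the 3 arrays of a group, lines and bars the mean and SD, and the dotted line the background level of 3.49. The 4 Fc gamma receptors and Fcer1g sat above PBS at both times, whereas Fcgrt and Fcrls sat above PBS at 4 d and not at 1 d.

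Fcgr1 encodes the high-affinity IgG receptor CD64. On the log2 scale it measured 6.34, 6.24 and 6.48 in the LPS 4 d pools, 6.72, 6.60 and 6.97 in the LPS 1 d pools and 4.70, 4.53 and 5.17 in the PBS pools. The 3 groups did not overlap, and the 1 d pools were the highest. The change against PBS was 1.55 ± 0.17 (log2, SE) at 4 d, or 2.93-fold (limma adjusted p = 7.69e-04), and 1.96 ± 0.17 at 1 d, or 3.90-fold (adjusted p = 1.50e-04). Between the LPS groups the log2 difference was -0.41 (95% interval -0.79 to -0.03), which was not called (limma adjusted p = 0.337). A dimmer Fcgr1 probe set gave the same order with smaller log2 changes, 0.59 at 4 d and 0.96 at 1 d against PBS.

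Fcgr4 encodes an activating receptor for the mouse subclasses IgG2a and IgG2b, and was dim in the vehicle group. Log2 levels were 6.21, 5.89 and 6.37 in LPS 4 d, 6.40, 6.61 and 6.59 in LPS 1 d, and 2.55, 3.80 and 3.58 in PBS pools. The PBS mean of 3.31 lay below the background level, with 2 of 3 PBS arrays above it, and every LPS array was above it. The fitted log2 change was 2.85 ± 0.29 (SE) at 4 d (limma adjusted p = 5.37e-04) and 3.22 ± 0.29 at 1 d (adjusted p = 1.91e-04). With PBS values below background raised to it, Fcgr4 was at least 5.78-fold higher at 4 d and at least 7.51-fold higher at 1 d. The LPS 4 d pools all lay below the LPS 1 d pools, but the log2 difference of -0.38 (95% interval -1.02 to 0.27) was not called (limma adjusted p = 0.638).

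The promoter windows of Fcgr1 and Fcgr4 are shown because these genes had their highest pools at 1 d. For neither gene was the difference between the LPS groups called. The windows are RefSeq sequences (GRCm38.p6) of 250 bases before and 50 after the annotated start, printed 5′ to 3′ on the gene's strand. Capitals in the Fcgr1 window (chr3:96293920-96294219, minus strand) mark an Ets core (GAGGAA, here on the opposite strand, the kind PU.1 binds) 55 bases before the start. Capitals in the Fcgr4 window (chr1:171018676-171018975, plus strand) mark an ISRE core (GAAA, any 2 bases, then GAAA, the kind interferon regulatory factors bind) 73 bases before the start, and then an Ets core, on the opposite strand, 22 bases before it.
Fcgr1: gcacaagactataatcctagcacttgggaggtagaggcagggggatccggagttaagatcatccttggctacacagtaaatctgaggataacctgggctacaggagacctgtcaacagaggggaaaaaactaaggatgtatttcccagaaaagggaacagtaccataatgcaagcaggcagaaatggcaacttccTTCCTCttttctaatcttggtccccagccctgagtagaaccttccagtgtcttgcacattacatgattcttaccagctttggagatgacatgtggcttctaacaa
Fcgr4: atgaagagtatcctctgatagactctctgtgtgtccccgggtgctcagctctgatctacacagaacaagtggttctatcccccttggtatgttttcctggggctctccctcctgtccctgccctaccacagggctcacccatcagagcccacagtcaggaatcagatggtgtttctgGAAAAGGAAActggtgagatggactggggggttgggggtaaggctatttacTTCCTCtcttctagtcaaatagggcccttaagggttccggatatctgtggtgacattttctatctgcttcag

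All 7 genes matched the RefSeq promoter table, with 8 windows because Fcgr3 has 2 overlapping ones, and each motif was searched on both strands of 32851 mouse windows of the same length. The Ets core was in 5 of the 8 member windows (Fcgr1, both of Fcgr3, Fcgr4 and Fcrls) and in 28.3% of all windows. The ISRE core was in 1 of the 8 (Fcgr4) and in 3.44% of all. The 2 motifs did not overlap in the member windows. A match gives the letters of the window and was not tested as a binding site. Fcgr2b, Fcgr4 and Fcgr3 are next to each other among the protein-coding genes of chromosome 1, in that order, with Fcer1g on the same chromosome.

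Fcgr3 encodes CD16, a low-affinity activating receptor, and rose at both times, by less than the probe sets used for the other Fc gamma receptors. The dimmer Fcgr1 probe set changed less than Fcgr3 at both times. The arrays read 7.59, 7.41 and 7.51 in LPS 4 d, 7.19, 7.19 and 7.30 in LPS 1 d, and 6.13, 6.23 and 6.28 in PBS pools (log2 levels). The groups did not overlap, with the 4 d pools on top, opposite to Fcgr1 and Fcgr4. The log2 change was 1.29 ± 0.08 (SE), or 2.45-fold, at 4 d (limma adjusted p = 3.87e-05) and 1.02 ± 0.08, or 2.03-fold, at 1 d (adjusted p = 1.15e-04). The difference between the LPS groups, 0.27 (95% interval 0.09 to 0.46), was not called (limma adjusted p = 0.173).

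Fcer1g, the ITAM-bearing chain that the activating receptors need to reach the cell surface and to signal, rose at both times. The log2 level reached 9.72, 9.41 and 9.93 in LPS 4 d, 8.98, 9.34 and 9.09 in LPS 1 d, and 6.71, 6.76 and 6.77 in PBS pools. The PBS pools were close together, and every 4 d pool was above every 1 d pool. The log2 change was 2.94 ± 0.14 (SE), or 7.68-fold, at 4 d (limma adjusted p = 8.72e-06) and 2.39 ± 0.14, or 5.24-fold, at 1 d (adjusted p = 1.78e-05). The difference between the LPS groups was 0.55 (95% interval 0.24 to 0.86) and was not called (limma adjusted p = 0.0943). Without LPS 4 d replicate 2, the lowest of its group, that difference was 0.69 and was called (adjusted p = 0.0302).

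Fcgr2b, the inhibitory receptor of the family, rose strongly at both times. Measured log2 levels were 8.60, 8.14 and 8.41 in LPS 4 d, 8.08, 8.41 and 8.07 in LPS 1 d, and 4.93, 4.91 and 5.39 in PBS pools. The LPS groups overlapped each other and both lay far above PBS. The log2 change was 3.31 ± 0.17 (SE), or 9.89-fold, at 4 d (limma adjusted p = 1.14e-05) and 3.10 ± 0.17, or 8.60-fold, at 1 d (adjusted p = 1.50e-05). Between the LPS groups the log2 difference was 0.20 (95% interval -0.18 to 0.59; limma adjusted p = 0.682). The probe set used is of a type that can also recognise transcripts of related genes. The other 3 Fcgr2b probe sets were called higher at both times as well, with smaller log2 changes of 1.57 to 2.98 at 4 d and 1.47 to 2.78 at 1 d.

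**Figure D2:**
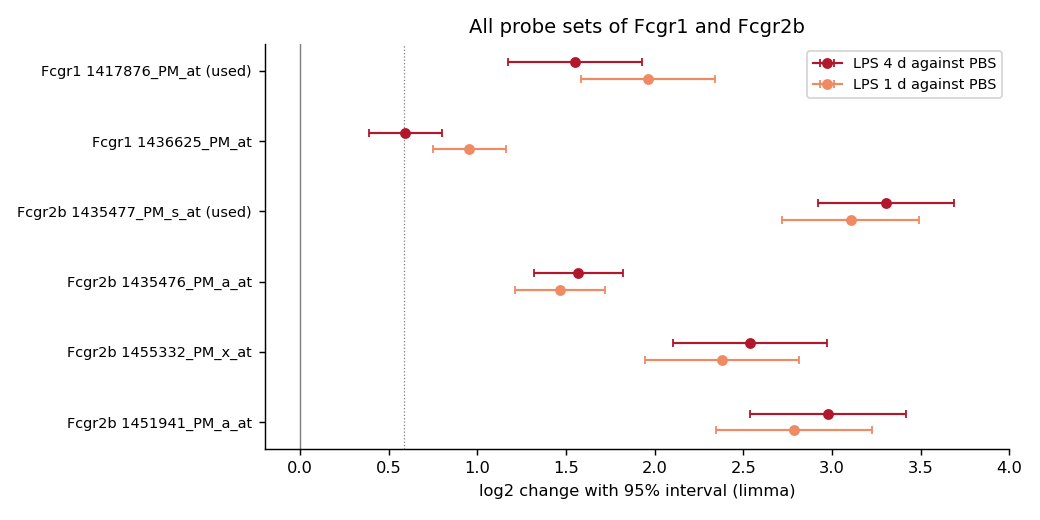
Log2 change against PBS, with its 95% interval (horizontal axis), of the 2 probe sets of Fcgr1 and the 4 of Fcgr2b; the dotted line is the 1.5-fold threshold. Each of the 6 passed the test in either comparison, and the size of the Fcgr2b change ran between 1.57 and 3.31 at 4 d depending on the probe set.

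Set against Fcgr2b, the activating genes differed in how far they rose, and the comparison rested on the Fcgr2b probe set. At 4 d the log2 change of Fcgr3 was smaller than that of Fcgr2b by 2.01 with the probe set used, and by 0.28 with the Fcgr2b probe set that changed least. At 1 d it was smaller by 2.08 and by 0.45, so the direction held for all 4 Fcgr2b probe sets at both times. For the Fcgr1 probe set used, the difference at 4 d ran between -1.75 and -0.02, and at 1 d between -1.14 and 0.50. The dimmer Fcgr1 probe set rose by 0.59 at 4 d and 0.96 at 1 d, less than any of the 4 Fcgr2b probe sets. For Fcer1g the difference ran between -0.36 and 1.37 at 4 d and between -0.71 and 0.93 at 1 d. Fcgr4 is left out here because its PBS level was at background. No direction relative to Fcgr2b can be given for Fcer1g at either time or for the Fcgr1 probe set used at 1 d. For that Fcgr1 probe set at 4 d the difference was negative with all 4 Fcgr2b probe sets. With the Fcgr2b probe set that changed least it was only -0.02. These are descriptions of unequal change between probe sets, with no test.

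Fcgrt, the heavy chain of FcRn, moved little against PBS and stood apart between the LPS time points. On the log2 scale Fcgrt was at 6.36, 6.60 and 6.34 in LPS 4 d, 5.70, 5.19 and 5.50 in LPS 1 d, and 6.00, 6.10 and 6.00 in PBS pools. Every 4 d pool lay above, and every 1 d pool below, every PBS pool. The difference between the LPS groups was 0.97 ± 0.13 (log2, SE), or 1.96-fold, higher at 4 d (limma adjusted p = 0.00542). Against PBS neither time was called: the log2 change was 0.40 (95% interval 0.10 to 0.70) at 4 d (limma adjusted p = 0.169) and -0.57 (95% interval -0.87 to -0.27) at 1 d (adjusted p = 0.0522). Without LPS 1 d replicate 1 the change at 1 d was -0.69 and was called lower (adjusted p = 0.026).

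Fcrls was high at 4 d alone among the groups. Its log2 level was 8.90, 8.81 and 9.23 in LPS 4 d, 6.68, 5.38 and 6.59 in LPS 1 d, and 6.86, 6.67 and 6.70 in PBS pools. The LPS 1 d and PBS pools overlapped, and LPS 1 d replicate 2 lay well below all others. The log2 change was 2.23 ± 0.30 (SE), or 4.70-fold, at 4 d against PBS (limma adjusted p = 0.00318), and 2.76 ± 0.30, or 6.78-fold, at 4 d against 1 d (adjusted p = 0.00175). At 1 d the change against PBS was -0.53 (95% interval -1.21 to 0.15) and was not called (limma adjusted p = 0.451). Without LPS 1 d replicate 2, a choice made after its value was seen, the 1 d change was -0.11 (adjusted p = 0.804) and the difference between 4 d and 1 d was 2.34 (adjusted p = 6.59e-04). On the linear scale Fcrls averaged 508 ± 79.9 in LPS 4 d, 80.1 ± 33.5 in LPS 1 d and 107 ± 7.45 in PBS pools (SD, n = 3 each).

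The Fcrls promoter window is shown as that of the member with the late pattern (RefSeq GRCm38.p6, chr3:87263475-87263774, minus strand). Capitals in it mark an Ets core, 144 bases before the start, and it held no ISRE letters.
Fcrls: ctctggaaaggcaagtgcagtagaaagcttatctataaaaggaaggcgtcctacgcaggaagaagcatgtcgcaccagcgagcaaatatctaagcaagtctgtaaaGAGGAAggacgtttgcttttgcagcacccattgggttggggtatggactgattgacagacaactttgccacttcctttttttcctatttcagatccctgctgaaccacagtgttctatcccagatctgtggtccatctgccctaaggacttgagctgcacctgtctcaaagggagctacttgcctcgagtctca

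**Figure D3:**
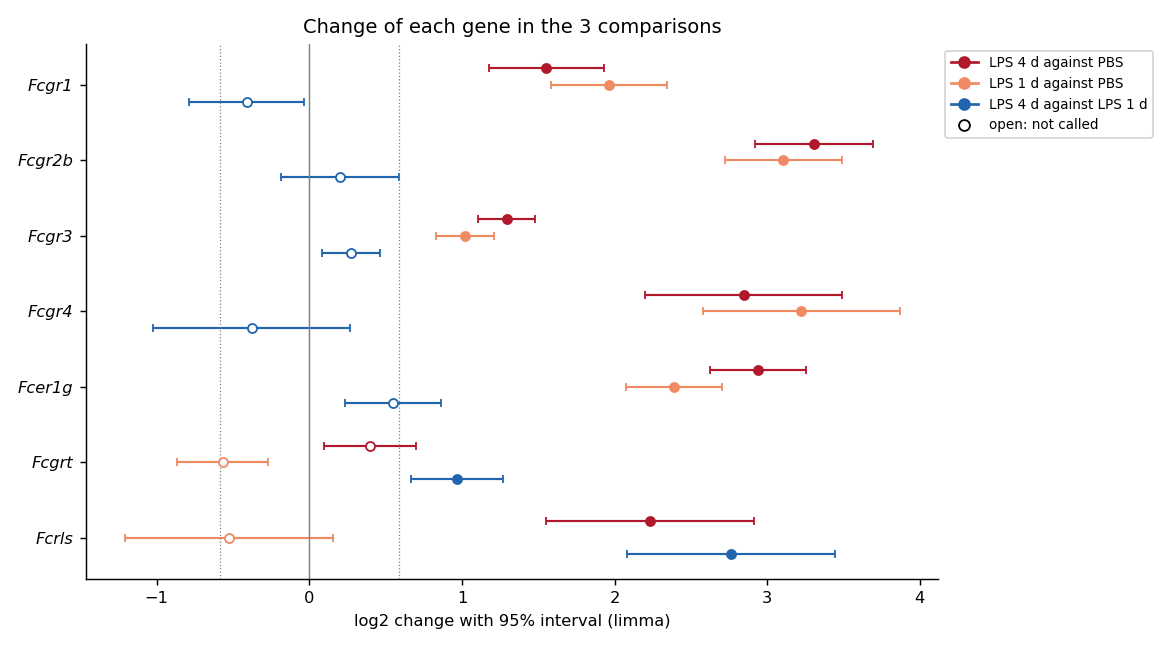
Log2 change with its 95% interval (horizontal axis) of each gene in the 3 comparisons; filled symbols are called, open symbols are not, and dotted lines mark 1.5-fold. The 4 Fc gamma receptors and Fcer1g have filled symbols against PBS at both times and open symbols between the LPS times, whereas Fcgrt and Fcrls have filled symbols between the LPS times, at 0.97 and 2.76.

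Of 12 other Fc receptor genes, 8 were measured under their symbol alone, and 7 were at background in all groups. These were the IgE receptor chains Fcer1a and Ms4a2, the low-affinity IgE receptor Fcer2a, the IgA and IgM receptors Fcamr and Pigr, and the B cell genes Fcrla and Fcrl1. Trim21, the cytosolic IgG receptor and ubiquitin ligase, was the exception. Log2 levels of Trim21 were 5.39, 5.39 and 5.13 in LPS 4 d, 6.10, 6.42 and 6.27 in LPS 1 d, and 4.60, 4.15 and 4.28 in PBS pools. It was called higher at both times, by 0.96 at 4 d (limma adjusted p = 0.00457) and by 1.92 at 1 d (adjusted p = 5.26e-05), and unlike any of the 7 genes it was called lower at 4 d than at 1 d, by -0.96 (adjusted p = 0.00694).

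Among 7 ITAM adaptor genes, Tyrobp (DAP12, the adaptor of Trem2 and other myeloid receptors) rose together with Fcer1g. Tyrobp had log2 levels of 9.87, 9.70 and 9.80 in LPS 4 d, 8.60, 8.91 and 8.83 in LPS 1 d, and 7.52, 7.46 and 7.47 in PBS pools. The groups did not overlap, and Tyrobp was higher by 2.31 at 4 d (limma adjusted p = 5.81e-06) and by 1.29 at 1 d (adjusted p = 6.04e-05), with a called difference of 1.01 between the LPS groups (adjusted p = 8.53e-04). Cd79b, a B cell receptor chain, was above background in the LPS 4 d pools and in no other, and was at least 1.34-fold higher there than in PBS (limma adjusted p = 0.00154). Hcst (DAP10) was not called, at 4.30, 4.02 and 3.60 in LPS 4 d, LPS 1 d and PBS, and the T and B cell chains Cd247, Cd79a, Cd3e and Cd3g were at background.

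A list of 9 receptors linked to Fcer1g or related to such receptors had 8 measured genes, of which 4 were called higher at 4 d and 4 at 1 d. Clec4e (Mincle, a receptor for mycobacterial glycolipid and for products of dead cells) was below background on all PBS arrays and was at least 8.82-fold higher at 1 d (limma adjusted p = 1.33e-04), with a 4 d level lower than at 1 d by a log2 difference of -2.58 (adjusted p = 0.00578). Clec4d, its partner, was at least 6.14-fold higher at 4 d and at least 9.16-fold at 1 d, and Pirb, an inhibitory receptor for MHC class I, at least 2.82-fold and 3.41-fold. Trem3, a receptor known to use Tyrobp in mouse macrophages, was above background at 1 d alone, at least 3.62-fold above PBS. Unlike Fcer1g itself, Clec4e and Trem3 were thus called lower at 4 d than at 1 d. Clec4n (Dectin-2) was higher at 4 d by 1.11 (limma adjusted p = 0.0373) and was not called at 1 d.

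Of 35 measured kinases, effectors and phosphatases below these receptors, 18 were called higher and 0 lower at 4 d against PBS. The shares of all genes were 4.21% higher and 0.205% lower. At 1 d 11 were called higher and 0 lower, beside 3.86% and 0.532% of all genes. Between the LPS groups 6 were higher at 4 d and 0 lower, beside 1.84% and 1.37% of all genes. At an unadjusted limma p under 0.05 the counts were 19 higher and 1 lower at 4 d, 20 and 0 at 1 d, and 13 and 1 between the LPS groups. The share of all genes at that unadjusted p was not computed. The median log2 change of the 35 genes was 0.72 at 4 d and 0.47 at 1 d against PBS and 0.21 between the LPS groups. Among kinases, Fgr of the Src family was at least 1.55-fold higher at 4 d and at least 2.42-fold at 1 d. The Tec-family kinases Btk and Tec were higher at 4 d, by 1.18 and 1.17 (limma adjusted p = 0.00954 and 0.0025), and not called at 1 d. Fyn and Src were not called, and the probe set of Syk was at background in all groups.

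Effectors made up 13 of the 18 genes called at 4 d and 9 of the 11 at 1 d. Rac2, the Rac GTPase of phagocytes, had log2 levels of 7.51, 7.17 and 7.66 in LPS 4 d, 6.55, 6.99 and 6.75 in LPS 1 d and 3.69, 4.10 and 4.09 in PBS pools. Its log2 change was 3.49 at 4 d (limma adjusted p = 8.82e-06) and 2.81 at 1 d (adjusted p = 2.20e-05). Lcp2 (SLP-76, a scaffold below Syk) was higher by 2.42 at 4 d and 2.46 at 1 d. The phosphoinositide 3-kinase adaptor Pik3ap1 and the regulatory subunit Pik3r5 were below background on all PBS arrays and were at least 4.91-fold and 5.95-fold higher at 4 d and at least 3.17-fold and 4.99-fold higher at 1 d. Pik3cg, Dock2, Blnk and Lat2 were higher at 4 d than at 1 d, by log2 differences of 1.34, 1.26, 1.15 and 1.07 (limma adjusted p between 9.74e-04 and 0.01).

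On the inhibitory side, 2 of 8 measured genes were called at 4 d and 1 at 1 d. Ptpn6 (SHP-1, a tyrosine phosphatase recruited by ITIMs) was at 7.09, 6.65 and 7.28 in LPS 4 d, 6.37, 6.63 and 6.45 in LPS 1 d and 3.69, 3.35 and 4.42 in PBS pools, and was higher by 3.19 at 4 d (limma adjusted p = 1.52e-04) and 2.67 at 1 d (adjusted p = 3.50e-04). Inpp5d (SHIP1), the phosphatase recruited by Fcgr2b, was at 6.94, 6.61 and 6.80 in LPS 4 d, 5.74, 6.17 and 6.08 in LPS 1 d and 5.50, 5.44 and 5.65 in PBS pools. It was higher by 1.25 at 4 d (limma adjusted p = 7.14e-04), was not called at 1 d, at 0.47 (adjusted p = 0.111), and was higher at 4 d than at 1 d by 0.79 (adjusted p = 0.0163). Fcgr2b was thus called at both times, whereas Inpp5d was called at 4 d.

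**Figure D4:**
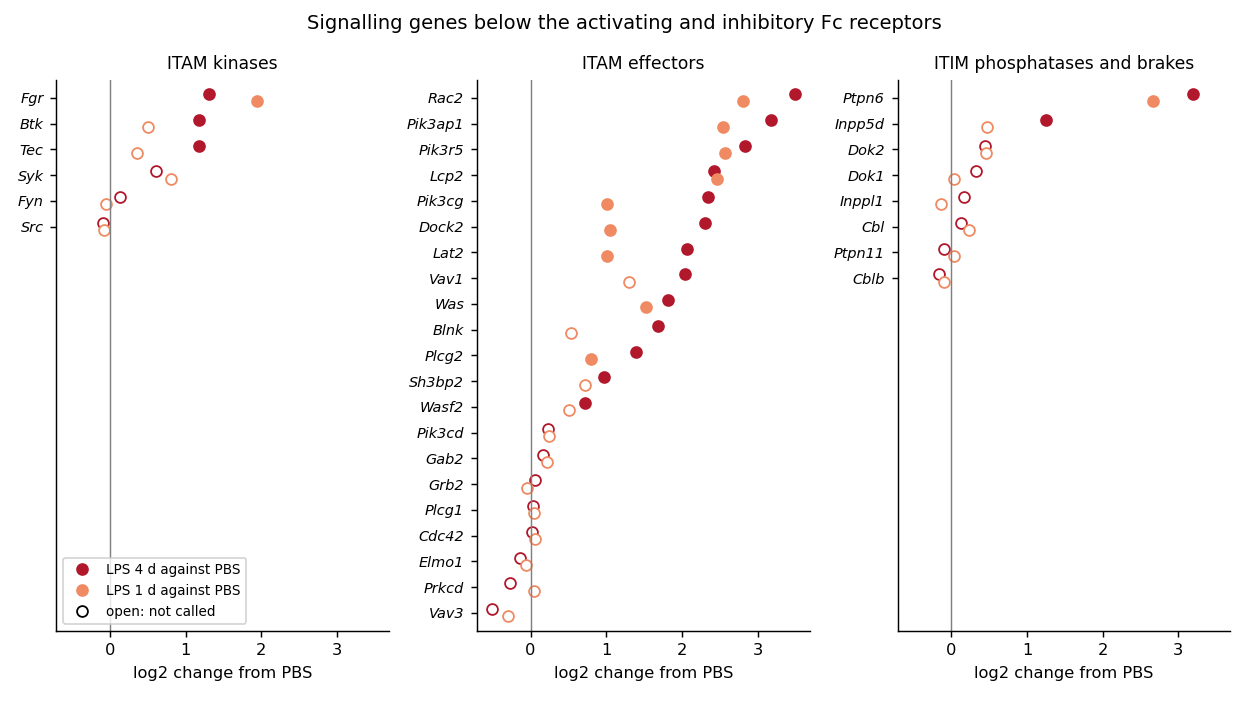
Log2 change against PBS (horizontal axis) at 4 d and at 1 d of 35 kinases, effectors and phosphatases of the ITAM and ITIM pathways; filled symbols are called and open symbols are not. Filled symbols number 18 at 4 d and 11 at 1 d and all lie to the right of 0, with Rac2 at 3.49 and Ptpn6 at 3.19 at 4 d among those farthest from it.

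The partner of Fcgrt, B2m, was not analysed here. The related MHC class I heavy chains, which also pair with it, took a different course from Fcgrt: all 3 measured were called higher at both times. H2-K1 was higher by 2.11 at 4 d and 2.29 at 1 d, and H2-D1 by 2.23 and 2.32. H2-T23 was higher by 0.77 at 4 d and 2.03 at 1 d and was lower at 4 d than at 1 d by a log2 difference of -1.27 (limma adjusted p = 0.00156), the direction opposite to that of Fcgrt.

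As to ligands, Ighm, Igha and Jchain, the 3 of 10 immunoglobulin genes measured, were at background in all groups, and the IgG heavy chains were not analysed here. Ptx3, a pentraxin that Fc gamma receptors can bind, was below background on all PBS arrays and at least 48.0-fold higher at 1 d (limma adjusted p = 8.03e-06). Its log2 level was lower at 4 d than at 1 d by -4.80 (adjusted p = 1.79e-04). The pentraxins Apcs and Crp were not called.

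Of 15 transcription factors and cytokine receptors known to control Fc gamma receptor genes, 13 were measured, and 8 were called higher at 4 d and 4 at 1 d. Spi1, which encodes the myeloid Ets factor PU.1, was higher by 1.80 at 4 d (limma adjusted p = 0.00176) and 1.56 at 1 d (adjusted p = 0.00363), with 1 of 3 PBS arrays above background. Irf8 was higher at 4 d than at 1 d by 1.12, with Cebpa at 0.68 and Ifngr1 at 0.63. Irf1, an interferon response factor, and C5ar1, a complement receptor that raises activating Fc receptors in mouse macrophages, were lower at 4 d than at 1 d, by log2 differences of -0.67 and -1.41. The cytokine genes Ifng, Il10 and Tgfb1 were at background in all groups. The part of these regulators in the results for the 7 genes was not tested.

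The genes most like each member were named by Pearson correlation of log2 values over the 9 arrays, among 1304 genes past the F-test. With 9 arrays in 3 groups, such values mostly restate the order of the groups and carry no test. For Fcgr1 they were Lcn2, Psmb8 and Tspo (r of 0.980 to 0.987), for Fcgr4 Slc15a3, Igsf6 and Hcls1 (0.984 to 0.987) and for Fcgr2b Cybb, Bcl2a1a and Lcp2 (0.995 to 0.996). For Fcgr3 they were C4b, Pycard and Arhgdib (0.994 to 0.998), and for Fcer1g Rac2, Trpt1 and Arhgdib (0.997 to 0.998), so Arhgdib was shared by both. For Fcrls they were Itgb5, Rnase4 and E2f8 (0.979 to 0.991), and for Fcgrt Padi2, Mmgt2 and H3c15 (0.967 to 0.977).

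Markers of several cell types moved with the groups. In this bulk tissue a change in the number of cells of a type and a change in RNA per cell cannot be told apart. Of 11 measured monocyte and recruited macrophage markers, the test called 9 higher at 4 d and 8 at 1 d; their summed linear level was 2258 to 3125 in LPS 4 d, 1669 to 1722 in LPS 1 d and 353.5 to 400.2 in PBS arrays. Between the LPS groups 2 of these markers were higher at 4 d, Ms4a7 and Lyz2, and 3 were lower, Chil3, Plac8 and Ms4a4c. Ms4a7 was below background on all PBS arrays and at least 26.7-fold higher at 4 d. Its log2 difference between the LPS groups was 4.36 (limma adjusted p = 9.20e-05), against 2.76 for Fcrls, with 2 of 3 LPS 1 d arrays above background. Lyz2 alone had a mean linear level of 1539 in LPS 4 d against 548 in LPS 1 d pools. Of 10 measured neutrophil markers, 1 was higher at 4 d and 7 at 1 d, with sums of 300.5 to 519.9, 1663 to 4511 and 107.7 to 188.8 in LPS 4 d, LPS 1 d and PBS arrays and Camp at background. S100a8 and S100a9 were the largest parts of that neutrophil sum in each group, with mean linear levels of 1180 and 1385 in LPS 1 d pools. Camp, Ltf and Ngp were called in no comparison. The part of these marker shifts in the results for the Fc receptor genes was not tested.

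Microglia markers are given beside Fcrls. Against PBS, 4 of 10 measured markers rose and 0 fell at 4 d, whereas 0 rose and 3 fell at 1 d (5 and 0 at 4 d and 0 and 5 at 1 d at an unadjusted limma p under 0.05). Between the LPS groups 7 were higher at 4 d. Their sum was 2256 to 2659 in LPS 4 d, 1527 to 1825 in LPS 1 d and 1572 to 1747 in PBS arrays, with Slc2a5 at background. The largest part of that sum in each group was Sparc, which was called in no comparison. Sparc had mean linear levels of 1024 in LPS 4 d, 1108 in LPS 1 d and 942 in PBS pools, so the sum says little about the other markers. Trem2, a microglial lipid receptor that signals through Tyrobp, had log2 levels of 7.38, 7.02 and 7.05 in LPS 4 d, 5.03, 4.41 and 4.97 in LPS 1 d and 5.41, 5.74 and 5.47 in PBS pools, and like Fcrls was higher at 4 d than both other groups, by 1.61 against PBS and 2.35 against LPS 1 d. The purinergic receptor P2ry12 was instead lower at 1 d, by -2.14 against PBS, and not called at 4 d. Gpr34 was called lower at 1 d as well, with a mean at background there and 1 of 3 LPS 1 d arrays above it, so the size of its change is not given. LPS 1 d replicate 2, the array with the lowest Fcrls and Fcgrt, also had the lowest microglia sum, 1527, and the highest neutrophil sum, 4511. Of 8 border macrophage markers 3 rose at 4 d, and at 1 d 2 rose and 1 fell. Between the LPS groups Mrc1 and Stab1 were higher at 4 d, by 1.77 and 1.71. Border macrophage sums were 388.1 to 565.8 in LPS 4 d, 173.5 to 227.1 in LPS 1 d and 126.8 to 133.2 in PBS arrays. Cd163, Lyve1, Cbr2 and Folr2 were at background. The part of these shifts in the Fcrls result was not tested.

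Endothelial markers are given beside Fcgrt. Of 7 measured, 2 were called higher at 4 d against PBS, Cldn5 and Cdh5. At 1 d the 2 called higher were Cdh5 and Ly6c1, by 0.85 and 1.08, whereas Fcgrt was at -0.57 and not called. Slco1a4, Tek and Cldn5 were higher at 4 d than at 1 d by 0.94, 0.73 and 0.72, against 0.97 for Fcgrt. Ly6c1 was lower at 4 d than at 1 d, by -0.63 (limma adjusted p = 0.00372), and the other 3 markers were not called between the LPS groups. Slco1a4, a transporter of brain endothelium, was at 8.12, 7.79 and 7.83 in LPS 4 d, 7.17, 6.72 and 7.05 in LPS 1 d and 7.54, 7.56 and 7.46 in PBS pools, so its groups stood in the same order as those of Fcgrt. The summed endothelial level was 1204 to 1325 in LPS 4 d, 1171 to 1276 in LPS 1 d and 867 to 920.4 in PBS arrays. Ly6c1 made the largest contribution to that sum in each group. The part of these shifts in the Fcgrt result was not tested. All 7 mast cell and basophil markers and 7 of 8 T and NK cell markers were at background in all groups, as were 5 of 6 measured B and plasma cell markers.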

How the data were processed

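Pools of RNA from 3 mice were labelled by the authors and hybridised to Affymetrix HT mouse arrays, and RMA was run in Affymetrix Expression Console (version not stated). What they deposited is 1 log2 value per probe set, after background correction, normalization across arrays and summarisation. RMA compresses changes of dim probe sets, and the number of arrays limits the precision.

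Control entries (104) were removed, leaving 45037 probe sets for testing. Platform annotation gave 28898 of them 1 symbol, 551 several and 15588 none; the last 2 kinds were not named. Group means were estimated from the 9 arrays together in limma 3.58.1 (R 4.3.3) with its empirical Bayes step (degrees of freedom: 6 residual plus 3.02 prior, 9.02 in all). Benjamini-Hochberg adjustment of the F-test and of each of 3 contrasts covered every probe set, and a call needed an adjusted p under 0.05 and at least 1.5-fold, the thresholds in the study's methods. The fit was tested on simulated data. All adjusted p-values are limma's unless another test is named, and they measure the spread between pools. A group mean at or under the highest mean of the 23 nonspecific controls (3.49) was taken as at background. "At least" folds raise each PBS value under that level to it. Linear levels are 2 to the power of the log2 value.

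The members and the 21 gene lists (184 genes, 153 measured) were chosen with earlier results of these data known. Named were the 7 members, all measured other Fc receptors, ITAM adaptors, FcRn partners and immunoglobulin chains, and the 3 genes most like each member. For each other list and comparison, genes were drawn from up to 4 with the largest called change, and not all of these are named. Other genes named for their level or as marker examples, and Ifngr1 among the regulators, were chosen after their values were seen. Counts called in any list are to be read beside the shares of all genes called, given with the 7 genes. Alternatives covered normalization, moderation, the dim filter, thresholds, other probe sets, the replicate block and each array left out.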

Additional observations from a re-analysis of the deposited data

Results flagged for a closer look

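The log2 change against PBS differed between the LPS times, by the test of LPS 4 d against LPS 1 d, for 2 of the 7 genes: Fcgrt (0.97) and Fcrls (2.76), both higher at 4 d. In both, LPS 1 d replicate 2 was the lowest array. Since PBS is common to both times, this difference is the difference between the LPS groups itself.

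The same test separated the times for other genes of the lists, and not all of these are given here. Of the cell type marker lists, those of microglia and endothelium alone are covered here. Monocyte and border macrophage markers that differed are given above. Among adaptors and signalling genes the log2 difference, LPS 4 d minus LPS 1 d, was 1.01 for Tyrobp, 1.07 for Cd79b, 0.82 for Tec, 1.34 for Pik3cg, 1.26 for Dock2, 1.15 for Blnk, 1.07 for Lat2 and 0.79 for Inpp5d. Cd79b was below background on all LPS 1 d arrays, so its value is not a measured fold. Among other activating receptors it was -2.58 for Clec4e and, with all LPS 4 d arrays below background, a fitted -2.93 for Trem3, which is not a measured size, and it was -0.96 for the cytosolic IgG receptor Trim21, -1.27 for H2-T23 and -4.80 for Ptx3.

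Among regulators it was 1.12 for Irf8, 0.68 for Cebpa, 0.63 for Ifngr1, -0.67 for Irf1 and -1.41 for C5ar1. Among microglia markers it was 2.35 for Trem2, 1.68 for P2ry12 and 1.28 for Cx3cr1. Gpr34 had a fitted 2.33 with its LPS 1 d mean at background, which is not a measured size either. Among endothelial markers it was 0.94 for Slco1a4, 0.73 for Tek, 0.72 for Cldn5 and -0.63 for Ly6c1, so this list did not move one way. No group had more than 3 arrays, and the spread of single arrays within a group was not screened.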

How the results depend on the processing

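The log2 changes of the 7 genes were recomputed over 21 alternative settings and with the other probe sets of Fcgr1 and Fcgr2b. Of the 453 values, 444 kept their direction and their side of the thresholds and 0 changed direction. Settings of moderation, adjustment, thresholds, the dim filter and the replicate block cannot alter a log2 change, so there the direction was fixed in advance. The same holds where the array left out belonged to the group not compared. An ordinary analysis of variance on the 2 compared groups alone, where each test has few degrees of freedom, left 4 members called at 4 d against PBS, 3 at 1 d (Fcgr2b, Fcgr3 and Fcer1g) and 0 between LPS 4 d and LPS 1 d (5 at an unadjusted p under 0.05), and it left 6, 4 and 0 of the 35 signalling genes called at 4 d, at 1 d and between the LPS groups (20, 22 and 13 at an unadjusted p under 0.05). Its adjusted p was 0.0922 and 0.0543 for Fcgr1 at 4 d and 1 d, 0.11 and 0.0627 for Fcgr4, 0.219 for Fcgrt and 0.193 for Fcrls between the LPS groups. The shares of all genes called by that analysis of variance, or at an unadjusted p under 0.05, were not computed. Without moderation, 3 signalling genes were called between the LPS groups. At a 2-fold threshold 1 member, Fcrls, was called between the LPS groups.

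With 1 array left out, the members called numbered 6 in every case at 4 d, 5 to 6 at 1 d and 2 to 3 between the LPS groups, and the signalling genes 15 to 18, 10 to 12 and 4 to 8. The extra members were Fcgrt at 1 d without LPS 1 d replicate 1 and Fcer1g between the LPS groups without LPS 4 d replicate 2. The replicate block gave 6, 5 and 2 members called, the same calls as without it. Same-numbered arrays deviated together with correlations of -0.03 to 0.02 over 9 pairs, so the numbers do not pair the pools. Limits that these settings do not address are the lack of a vehicle group at 1 d, pools in place of single mice, and a PBS level of Fcgr4 at background.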
